A study of Mus musculus with 31 samples.

Results

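The 9 genes described here, Dusp1, Dusp2, Dusp3, Dusp4, Dusp5, Dusp6, Dusp7, Dusp10 and Dusp16, encode dual specificity phosphatases that act on mitogen-activated protein (MAP) kinases. They were taken by symbol from the table of gene counts, where all 9 of 9 were found among 24411 entries. RNA-seq had been made from Ly6C-high monocytes of C57BL/6J mice, sorted as CD11b+, Ly6G-, Ly6C-high and MHC-II-, with 3 libraries in each of 3 groups, called healthy blood (mice without a tumor), LLC blood (mice carrying subcutaneous LLC tumors) and LLC tumor (cells taken from LLC tumors). LLC, Lewis lung carcinoma, is a transplantable mouse lung tumor line. The labels give no treatment, age or sex, do not say whether animals were pooled, and do not say whether LLC blood and LLC tumor came from the same mice, so p-values measure the spread between these libraries.

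MAP kinases (ERK, JNK and p38) are switched on by phosphorylation of a threonine and a tyrosine in the same loop, and dual specificity phosphatases remove both phosphates. Many of these genes are themselves induced by MAP kinase signalling, so that they form a negative feedback loop. Dusp1, Dusp2, Dusp4 and Dusp5 encode nuclear, inducible enzymes. Dusp6 and Dusp7 encode cytoplasmic enzymes that favour ERK, Dusp10 and Dusp16 encode enzymes that favour JNK and p38, and Dusp3 encodes a small atypical member without the kinase-binding domain. In macrophages Dusp1 is known as a brake on p38 and JNK after a microbial stimulus.

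In the step from LLC blood to LLC tumor 7 of the 9 genes rose and 2 fell, whereas in the step from healthy blood to LLC blood 2 fell and the others were not called. A gene was called at a Benjamini-Hochberg adjusted p under 0.05 in the edgeR quasi-likelihood fit of all 9 libraries, over 12337 genes tested, and all 9 members were tested. In LLC tumor against LLC blood 61.3% of all tested genes were called, 29.6% higher and 31.7% lower, and the median log2 fold change was 1.61 for the members and -0.03 for all tested genes. In LLC blood against healthy blood 23.6% of all tested genes were called, 14.0% higher and 9.61% lower, with medians of -0.39 for the members and -0.01 for all tested genes. There edgeR called 0 members higher, and 1 was higher at an unadjusted p under 0.05. DESeq2 called 0 members higher and 4 lower, and 3413 of all genes, against 2917 with edgeR. Limma-voom was run with sample quality weights, which give each library its own weight. It called 1 member higher and 4 lower, and 5884 of all genes. In LLC tumor against healthy blood 5 members were higher, 1 was lower and 3 were not called, where 66.5% of all tested genes were called, 33.5% higher and 33.0% lower. The comparisons share libraries: LLC blood enters both steps with opposite sign, so a low value in LLC blood lowers one and raises the other.

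Total counts were 10457492 to 20706412 per library, and levels are given as CPM of that total. The labelled cell type was checked with Itgam, Ly6c2, Ccr2, Csf1r and Lyz2, none of which was at 0 in any group, with a summed level of 31820 to 35690 CPM in healthy blood, 22400 to 25740 in LLC blood and 12680 to 16410 in LLC tumor. Most of that sum was Lyz2, and its members went different ways: Itgam, the gene of the sort marker CD11b, lay between 893.2 and 949.4 CPM in healthy blood but between 3193 and 3720 CPM in LLC tumor, while Ly6c2, a gene of the sort marker Ly6C, lay between 1571 and 1728 CPM in the former and between 272.4 and 472.5 CPM in the latter. The 6 fibroblast markers summed to 3.13 to 15.5 CPM in healthy blood and to 1.38 and 1.93 CPM in LLC blood 2 and 3. They summed to 408.9 CPM in LLC blood 1 and to 936.1 to 3921 CPM in LLC tumor. In LLC blood 1 most of this was Col1a1 (212.2 CPM) and Col1a2 (130.6 CPM), with Col3a1 at 57.2 CPM. In LLC tumor most was Col3a1 (713.3 to 3099 CPM), with Col1a1 at 13.5 to 129.3 CPM and Col1a2 at 7.13 to 103.1 CPM. The 6 epithelial or tumor cell markers summed to 1.35 to 2.73 CPM in blood and 63.1 to 101.3 CPM in LLC tumor, and the 6 endothelial markers to 11.3 to 18.98 and 51.0 to 69.6 CPM. In LLC tumor most of the former sum was Cdh1 (39.2 to 58.3 CPM). Krt8 and Krt18 were at 3.97 to 34.8 CPM there, and Epcam, Krt19 and Sftpc each at 0.259 CPM or less. Most of the endothelial sum was Pecam1 (41.0 to 56.1 CPM), while Tie1, Emcn and Cldn5 were each at 0.605 CPM or less. The 10 neutrophil markers summed to 674.3 to 916.5 CPM in healthy blood, 786.9 to 1251 CPM in LLC blood and 340.2 to 622.0 CPM in LLC tumor. In healthy blood most of that sum was Csf3r (497.6 to 542.7 CPM). S100a8 lay between 2.93 and 61.3 CPM in healthy blood, 49.9 and 216.5 CPM in LLC blood, and 23.2 and 111.7 CPM in LLC tumor. The part of these other cells in the results below was not tested. In bulk RNA fewer cells of a type and less RNA per cell cannot be told apart. LLC blood 1 thus stood apart from LLC blood 2 and 3. Without it 3 members, in place of 2, fell from healthy blood to LLC blood, with 2625 of all genes called in place of 2917. From LLC blood to LLC tumor 7 members then rose and 2 fell, with 7469 of all genes called in place of 7566. Single values are given without LLC blood 1 where they lose or gain a call or move by over 1.5 times.

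The promoters of 3 members are shown because Dusp1 and Dusp5 rose in LLC tumor and Dusp7 fell there, and because known response elements of inducible genes were found by their letters in Dusp1 and Dusp5. The sequences are the 250 bases before a RefSeq start (GRCm38.p6, the coordinates of mm10, the build in the submitters' processing notes), 5′ to 3′ on the gene's strand. For Dusp1 and Dusp5 that start is the outer end of the gene span given below. The Dusp7 window runs to 106368631, past the first base of its gene span at 106368560, so its last part lies within that span. Capitals mark the cAMP response element (CRE) core TGACG on either strand with the full CRE TGACGTCA that contains it, the E-box CACGTG, and the CArG box bound by serum response factor.
Dusp1 (chr17:26508473-26508722, minus strand): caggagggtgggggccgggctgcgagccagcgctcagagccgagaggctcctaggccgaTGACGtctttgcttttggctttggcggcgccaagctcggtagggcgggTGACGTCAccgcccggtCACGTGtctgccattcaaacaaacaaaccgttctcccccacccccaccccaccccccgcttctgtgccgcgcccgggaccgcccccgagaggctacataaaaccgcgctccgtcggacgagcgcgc
Dusp5 (chr19:53528895-53529144, plus strand): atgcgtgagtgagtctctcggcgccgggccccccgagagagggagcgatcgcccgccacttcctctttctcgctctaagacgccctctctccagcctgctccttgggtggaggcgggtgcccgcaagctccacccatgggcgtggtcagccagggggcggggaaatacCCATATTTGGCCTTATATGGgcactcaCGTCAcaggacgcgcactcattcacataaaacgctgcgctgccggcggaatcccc
Dusp7 (chr9:106368382-106368631, plus strand): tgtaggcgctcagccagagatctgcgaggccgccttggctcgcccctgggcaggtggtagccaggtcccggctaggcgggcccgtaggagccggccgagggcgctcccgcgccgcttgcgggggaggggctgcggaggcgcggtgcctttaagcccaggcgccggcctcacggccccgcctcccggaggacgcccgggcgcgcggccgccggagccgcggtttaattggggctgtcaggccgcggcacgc

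In Dusp1 a TGACG lay 191 to 187 bases before the start, a full CRE 143 to 136 and an E-box 126 to 121 bases before it. In Dusp5 a pair of adjacent CArG boxes lay 82 to 73 and 72 to 63 bases before the start, and a TGACG on the other strand 55 to 51 bases before it. Dusp7 held none of these letters in this window. Nor did the windows of Dusp6 and Dusp10, which rose from LLC blood to LLC tumor, or of Dusp3, which fell. The part of these letters in the changes was not tested. RefSeq promoters were matched for 8 members, all except Dusp4. The windows of Dusp3 and Dusp16 lay wholly inside their gene spans, so they are not the bases before the outer end of the gene. Among 32841 promoter windows of the same length, searched on both strands, TGACG was in 17.8%, the full CRE in 1.55%, the CArG box in 1.47% and the E-box in 6.02%. Of the 8 members 3 held TGACG (Dusp1, Dusp5 and Dusp16), 1 the full CRE, 1 a CArG box and 2 an E-box (Dusp1 and Dusp2). The AP-1 letters TGANTCA, in 6.75% of all windows, and the NF-kB site, in 7.25%, were in 0 of the 8. A match describes letters, not occupancy.

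Of the nuclear enzymes, Dusp1 (chr17:26505591-26508472), an immediate early gene whose product acts on p38 and JNK, was far higher in the tumor. It was at 369.0, 195.2 and 193.9 CPM in healthy blood 1 to 3, at 200.9, 61.98 and 60.46 CPM in LLC blood 1 to 3, and at 1987, 1545 and 1625 CPM in LLC tumor 1 to 3. The tumor libraries were all far above both blood groups, while healthy blood and LLC blood overlapped through LLC blood 1. From LLC blood to LLC tumor Dusp1 rose 18.7-fold (log2 fold change 4.23 ± 0.53 SE, adjusted p 0.00011), or 32.4-fold without LLC blood 1 (5.02, adjusted p 2.29e-05), and from healthy blood to LLC tumor 7.80-fold (2.96 ± 0.50 SE, adjusted p 0.000617).

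Between the blood groups the Dusp1 difference missed the threshold, at -1.26 ± 0.48 SE on the log2 scale (adjusted p 0.0867). Of 18 alternatives 4 called it. It was called without LLC blood 1 (-2.06, adjusted p 0.00445) and with the replicate block (-1.40, adjusted p 0.00487). Limma-voom with its sample quality weights also called it (-1.68, adjusted p 0.00132). The last left out both healthy blood 1 and LLC blood 1 and was added after seeing the data (-1.69, adjusted p 0.00583). The other 8 fits that each left out 1 library did not call it, among them those without healthy blood 1 (-0.88, adjusted p 0.276), LLC blood 2 (-0.98, adjusted p 0.249) and LLC blood 3 (-0.97, adjusted p 0.252). In both blood groups library 1 was the one with the most Dusp1. Library 1 was also the highest of its group for 10 of 15 immediate early genes in healthy blood and 11 in LLC blood, 9 of them the same genes, and the lowest for 3 in each, Ier3 and Egr3 in both. Ier3 was at 5.50, 7.19 and 8.15 CPM in healthy blood and at 10.7, 13.3 and 12.8 CPM in LLC blood. Fos was at 1209, 777.1 and 815.1 CPM in healthy blood and at 943.5, 377.3 and 330.4 CPM in LLC blood. Jun was at 592.7, 413.8 and 411.6 CPM in healthy blood and at 377.9, 15.08 and 10.05 CPM in LLC blood, so that LLC blood 1 lay next to healthy blood for this gene. The 18 dissociation stress genes, none of them a phosphatase of this family, summed to 7307 to 9658 CPM in healthy blood, 6968 CPM in LLC blood 1, 4284 and 4369 CPM in LLC blood 2 and 3, and 15380 to 19460 CPM in LLC tumor. Their part in the Dusp1 values was not tested.

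**Figure D1:**
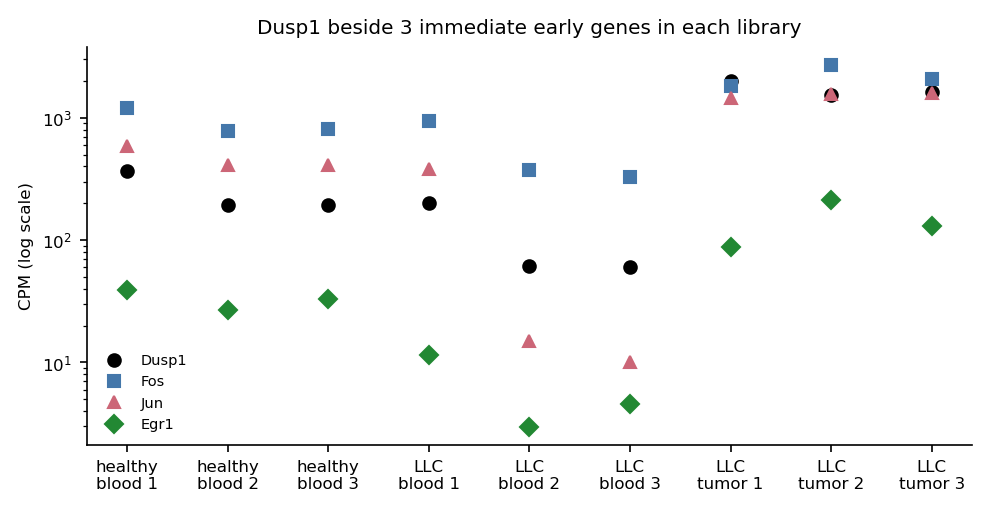
CPM on a log scale of Dusp1 and of the immediate early genes Fos, Jun and Egr1 in each of the 9 libraries, one point a library and gene. Dusp1 is at 1545 to 1987 CPM in the tumor libraries, and LLC blood 1 (200.9 CPM) sits above LLC blood 2 and 3 (61.98 and 60.46 CPM), as Fos and Jun do.

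Dusp4 (chr8:34807610-34819894), a nuclear phosphatase of ERK and JNK, had the largest fold change of the members but a low level in blood. Healthy blood held 22, 6 and 17 counts, LLC blood 5, 2 and 5, and LLC tumor 462, 267 and 265. That is 1.57, 0.369 and 1.04 CPM in healthy blood, 0.478, 0.138 and 0.241 CPM in LLC blood, and 41.7, 23.7 and 22.9 CPM in LLC tumor. The tumor libraries were far above every blood library, and the blood groups overlapped. With so few counts the exact 95% Poisson interval, which covers counting error only, ran from 0.0168 to 0.500 CPM in LLC blood 2 and from 0.985 to 2.38 CPM in healthy blood 1. From LLC blood to LLC tumor Dusp4 rose by 6.99 ± 0.59 SE on the log2 scale (127-fold, adjusted p 9.35e-06), a change larger than that of all but 2.07% of the tested genes. Against healthy blood the rise was 5.12 ± 0.50 SE (34.7-fold, adjusted p 1.84e-05). Between the blood groups Dusp4 was not called (-1.87 ± 0.74 SE, adjusted p 0.0987), but 4 of 17 alternatives called it as lower in LLC blood.

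Dusp5 (chr19:53529145-53541809), a nuclear enzyme specific for ERK, was at 11.9, 10.6 and 13.6 CPM in healthy blood, 17.1, 10.9 and 13.6 CPM in LLC blood, and 141.5, 80.3 and 99.6 CPM in LLC tumor. The blood groups overlapped and every tumor library lay above both. It rose 9.16-fold from LLC blood to LLC tumor (log2 fold change 3.20 ± 0.30 SE, adjusted p 1.63e-05) and 10.3-fold from healthy blood (3.37 ± 0.30 SE, adjusted p 1.04e-05). Its blood difference was 0.17 ± 0.29 SE (adjusted p 0.719).

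Dusp2 (chr2:127336159-127338377), a nuclear ERK phosphatase first known from activated lymphocytes, followed another course. It was at 44.7, 41.8 and 42.8 CPM in healthy blood, 26.7, 9.34 and 10.5 CPM in LLC blood, and 51.1, 24.5 and 41.7 CPM in LLC tumor. Healthy blood was narrow and lay wholly above LLC blood, while the tumor libraries spread over both. In LLC blood Dusp2 fell by 1.53 on the log2 scale (SE 0.42, 2.89-fold, adjusted p 0.0285). It did not stay called when healthy blood 1, 2 or 3 or LLC blood 2 or 3 was omitted (5 of 9 such fits, adjusted p 0.0645 to 0.117, log2 fold change -1.60 to -1.26), and with LLC blood 1 omitted it was -2.13 (4.37-fold lower, adjusted p 0.00438). From LLC blood to LLC tumor it rose 3.03-fold (1.60 ± 0.43 SE, adjusted p 0.00892), or 4.56-fold without LLC blood 1 (2.19, adjusted p 0.000955), and tumor against healthy blood gave 0.07 ± 0.40 SE (adjusted p 0.892).

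In blood the marker sums of NK cells and of T cells went the same way as Dusp2, while the B cell sums of the blood groups overlapped. Of the tested markers 9 of 9 for NK cells, 8 of 9 for T cells and 1 of 3 for B cells fell from healthy blood to LLC blood. The 9 NK cell markers summed to 205.3, 320.9 and 492.7 CPM in healthy blood, 28.4 to 51.5 CPM in LLC blood and 1.56 to 4.43 CPM in LLC tumor. The 10 T cell markers summed to 48.3, 130.9 and 212.3 CPM in healthy blood, 15.2 to 18.8 CPM in LLC blood and 103.6 to 124.5 CPM in LLC tumor. In LLC tumor that sum was nearly all Il7r (121.4, 103.5 and 99.5 CPM), the interleukin 7 receptor gene, while Cd3e, Cd3d and Cd3g, which encode parts of the T cell receptor complex, were each at 0.709 CPM or less. Against healthy blood 8 of the 9 tested T cell markers were lower in LLC tumor and 1 was higher. The 8 B cell markers summed to 23.4, 211.5 and 32.1 CPM in healthy blood, 32.03 to 38.4 CPM in LLC blood and 6.59 to 9.68 CPM in LLC tumor. Within healthy blood the T cell sum thus spread from 48.3 to 212.3 CPM while Dusp2 stayed between 41.8 and 44.7 CPM. The part of lymphocyte RNA in the Dusp2 difference was not tested.

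**Figure D2:**
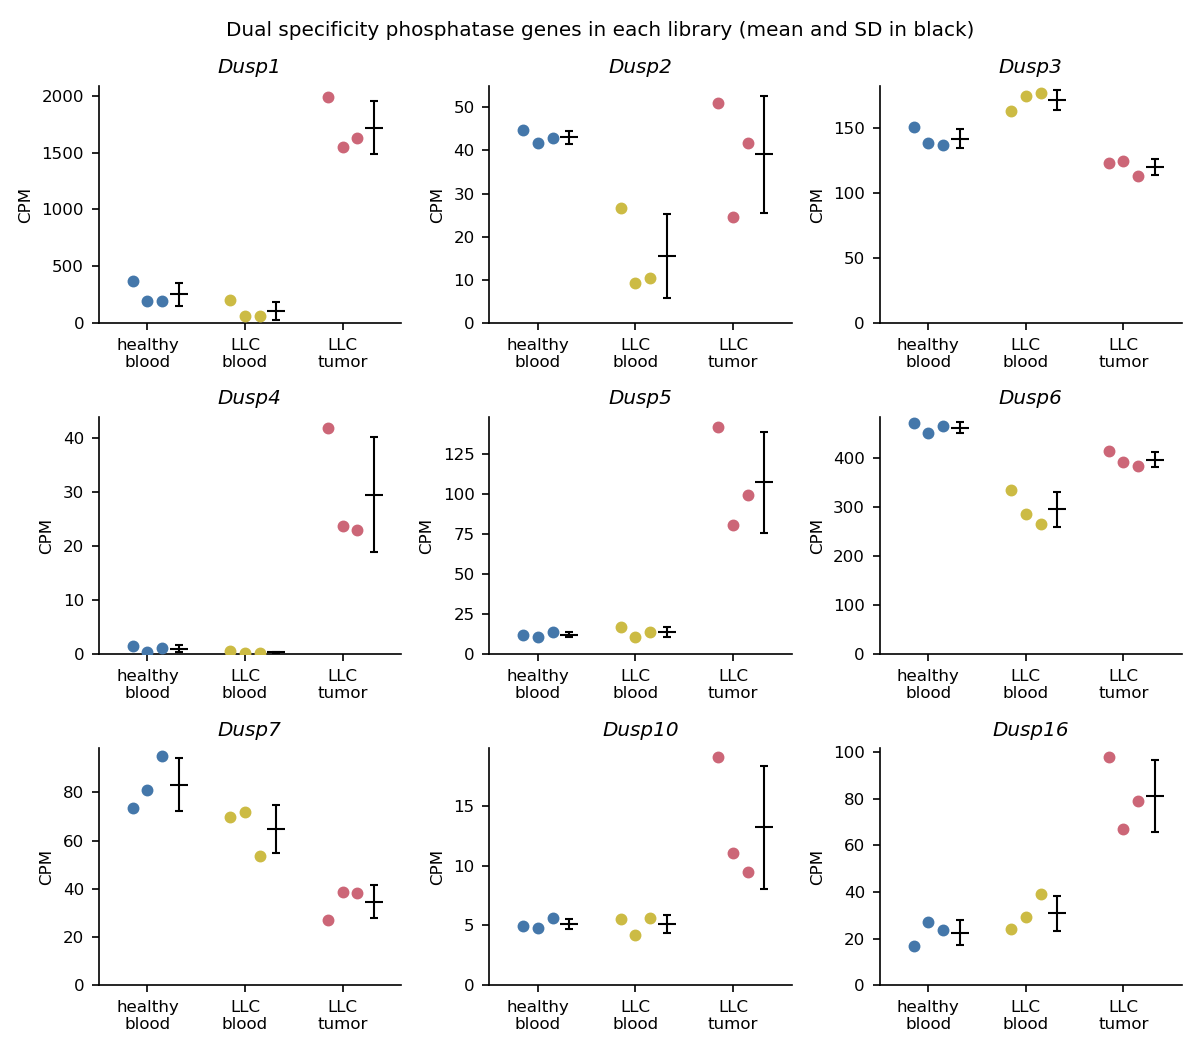
CPM of each of the 9 genes by group, one panel a gene with its own linear axis from 0, coloured points for the 3 libraries of a group and black bars for mean and SD. Dusp1, Dusp4, Dusp5, Dusp10 and Dusp16 are highest in every tumor library, Dusp7 is lowest there, and Dusp2 and Dusp6 dip in LLC blood.

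Of the cytoplasmic ERK phosphatases, Dusp6 (chr10:99263231-99267489), a classical feedback gene of the ERK pathway, dipped in LLC blood. It was at 471.5, 450.5 and 465.5 CPM in healthy blood, 335.3, 286.0 and 264.8 CPM in LLC blood, and 415.3, 391.7 and 384.6 CPM in LLC tumor. In CPM of library totals there was no overlap between any of the groups, and overlap was not examined with TMM factors. In LLC blood Dusp6 fell by 0.67 on the log2 scale (SE 0.13, 1.60-fold, adjusted p 0.00585), and this was called in all 18 alternative fits (-0.77 to -0.60). In LLC tumor it rose from that level by 0.64 ± 0.13 SE (1.56-fold, adjusted p 0.00197). LLC tumor and healthy blood differed by -0.03 ± 0.13 SE (adjusted p 0.827), and under scaling by library totals alone by -0.22 (adjusted p 0.0475). That scaling moved the median of all genes in this comparison to -0.17.

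Dusp7 (chr9:106368560-106375724), the other cytoplasmic ERK phosphatase, fell in the tumor. It was at 73.5, 81.0 and 95.0 CPM in healthy blood, 69.7, 71.7 and 53.5 CPM in LLC blood, and 26.9, 38.7 and 38.4 CPM in LLC tumor. All tumor libraries lay below all blood libraries, and each LLC blood library lay below each healthy blood library by a small margin. Dusp7 fell by 0.72 on the log2 scale from LLC blood to LLC tumor (SE 0.14, adjusted p 0.0013) and by 1.10 from healthy blood to LLC tumor (SE 0.14, 2.15-fold, adjusted p 7.92e-05). In blood the difference was -0.39 ± 0.13 SE and was not called (adjusted p 0.0616), though 4 of the 18 alternatives called it.

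Of the phosphatases that favour JNK and p38, Dusp16 (chr6:134715468-134807063) was at 16.8, 27.1 and 23.7 CPM in healthy blood, 24.3, 29.4 and 38.97 CPM in LLC blood, and 97.9, 67.1 and 79.3 CPM in LLC tumor. The blood groups overlapped and the tumor libraries lay above both. It rose 3.07-fold from LLC blood to LLC tumor (log2 fold change 1.62 ± 0.26 SE, adjusted p 0.000548) and 4.14-fold from healthy blood (2.05 ± 0.27 SE, adjusted p 0.000122), and its blood difference was 0.44 ± 0.26 SE (adjusted p 0.266).

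Dusp10 (chr1:184034381-184075636), of the same subgroup, was at 4.93, 4.79 and 5.64 CPM in healthy blood, 5.55, 4.22 and 5.60 CPM in LLC blood, and 19.1, 11.1 and 9.51 CPM in LLC tumor. It rose 3.06-fold from LLC blood to LLC tumor (1.61 ± 0.33 SE, adjusted p 0.00199), close in size to Dusp16, although LLC tumor 1 stood well above the other tumor libraries. Without LLC tumor 1 the rise was 1.13 and still called. In blood Dusp10 gave -0.03 ± 0.33 SE (adjusted p 0.971).

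Dusp3 (chr11:101971141-101987013), the atypical member, stayed between 112.5 and 176.4 CPM over the 9 libraries. It was at 150.2, 138.0 and 136.5 CPM in healthy blood, 162.6, 174.5 and 176.4 CPM in LLC blood, and 122.8, 124.2 and 112.5 CPM in LLC tumor. In CPM of library totals LLC blood was the highest group and LLC tumor the lowest, with no overlap. The TMM factors used in the fits were 0.798 in LLC tumor 1 and 1.03 to 1.04 in healthy blood, and overlap was not examined on that scale. Dusp3 fell by 0.31 on the log2 scale from LLC blood to LLC tumor (SE 0.10, 1.24-fold, adjusted p 0.0286), and 7 of 18 alternatives did not call it (without healthy blood 2, LLC blood 3, LLC tumor 2 or LLC tumor 3, under RLE factors, with DESeq2, or with the 6 libraries alone; adjusted p 0.0504 to 0.107). Its size depended on the scaling: under library totals alone, which moved the median of all genes to -0.23, it was -0.51 (adjusted p 0.000152), and with limma-voom -0.46 (adjusted p 7.53e-05). Its difference in blood was 0.25 ± 0.10 SE (adjusted p 0.118, called in 4 of 18 alternatives), and between healthy blood and LLC tumor -0.06 ± 0.10 SE (adjusted p 0.637, called as lower in 3 of 18 alternatives, at -0.24 to -0.18).

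**Figure D3:**
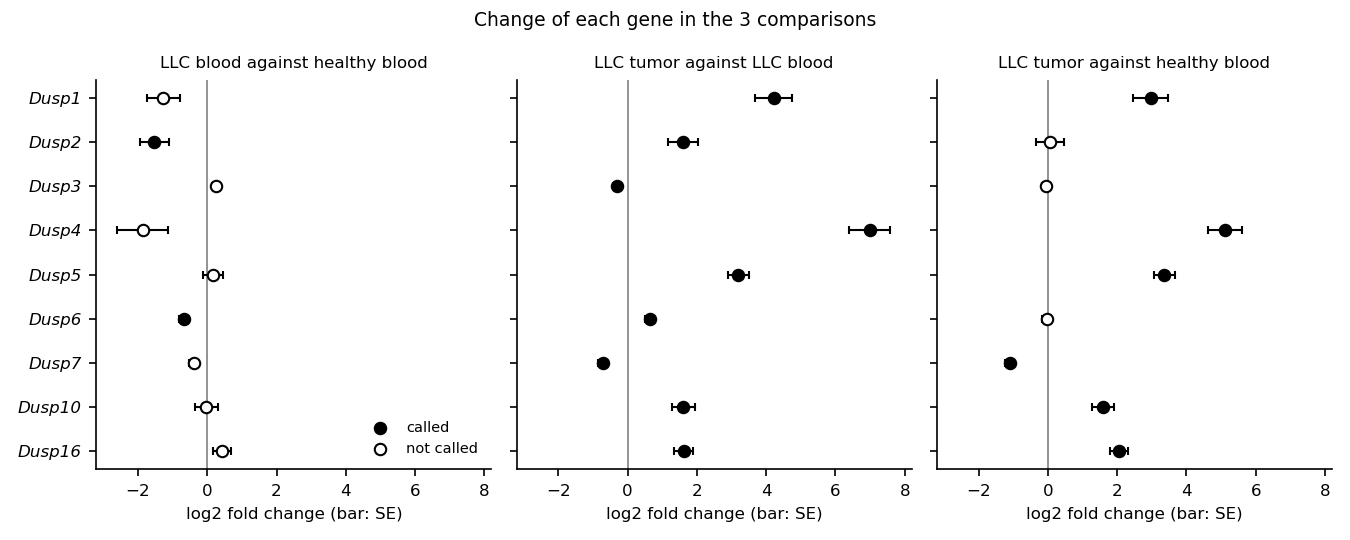
Log2 fold change with its SE for the 9 genes in the 3 comparisons, filled points called at an adjusted p under 0.05 and open points not. Dusp4, Dusp1 and Dusp5 are farthest to the right in the middle panel, from LLC blood to LLC tumor (6.99, 4.23 and 3.20), and the called genes in blood are Dusp2 and Dusp6.

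Over libraries, all 7 members that rose from LLC blood to LLC tumor had their highest tumor value in LLC tumor 1, and Dusp7 had its lowest there. LLC tumor 1 differed from LLC tumor 2 and 3 in other ways too. Its TMM factor was 0.798, against 0.9996 and 0.9682. Its fibroblast marker sum was the smallest of the tumor libraries, 936.1 CPM against 3467 and 3921 CPM. Its dissociation stress sum was the largest, 19460 CPM against 16100 and 15380 CPM. The part of any of these in the values of the members was not tested. The libraries of LLC blood and LLC tumor did not overlap for 8 of the 9 members, where 68.3% of all tested genes did not overlap; Dusp2 was the exception. Those of LLC blood and healthy blood did not overlap for 4 members (Dusp2, Dusp3, Dusp6 and Dusp7), against 51.4% of all tested genes.

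The make-up of the family by reads changed with the compartment. The summed level of the 9 genes was 949.4 to 1144 CPM in healthy blood, 624.1 to 842.6 CPM in LLC blood and 2306 to 2904 CPM in LLC tumor. Dusp6 gave the most reads in each blood library, 45.4% ± 3.67 (SD, n = 3) of the sum in healthy blood and 42.1% ± 2.17 in LLC blood, and 15.7% ± 1.36 in LLC tumor. Dusp1 gave 24.2% ± 7.0 in healthy blood, 14.4% ± 8.18 in LLC blood and 67.6% ± 0.737 in LLC tumor. Shares of reads depend on transcript length, so they compare a gene with itself across groups and not one gene with another.

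**Figure D4:**
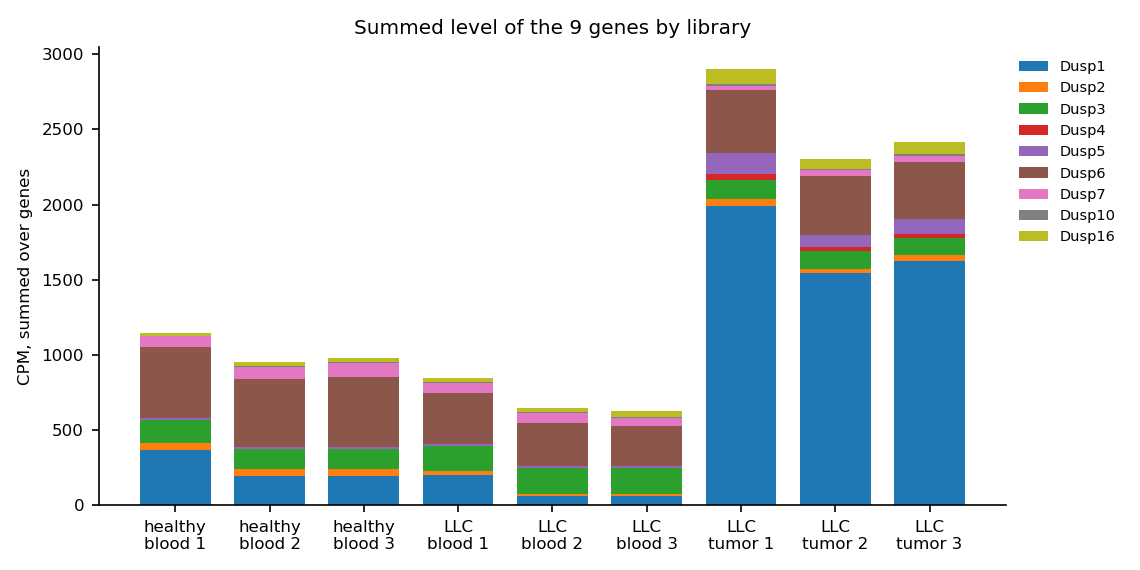
CPM of the 9 genes stacked by library on a linear axis from 0, each colour 1 gene. The tumor bars reach 2306 to 2904 CPM and most of their height is Dusp1, while in the blood bars Dusp6 is the largest block.

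Likeness of pattern was measured as the root mean square difference of centred log2(CPM + 0.5) over the 9 libraries. Among the members Dusp10 and Dusp16, both phosphatases of JNK and p38, were closest (0.39), and Dusp4 and Dusp7 farthest apart (2.82). Among all other tested genes the closest to Dusp1 was Ppp1r15a (0.334), a stress-induced regulatory subunit of protein phosphatase 1. The closest to Dusp4 were Lif (0.319), a cytokine, and Egr2 (0.336), an immediate early transcription factor. Tpi1 (0.174), a glycolytic enzyme, and Gadd45a (0.179), a stress-induced gene, were closest to Dusp5. Skil (0.123) was closest to Dusp10, Cysltr1 (0.187), a leukotriene receptor, to Dusp16, and Gng5 (0.0727) to Dusp6.

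The other genes of the pathway were counted in lists, to be read beside the shares over all tested genes. In LLC tumor against LLC blood these were 29.6% higher and 31.7% lower, and in LLC blood against healthy blood 14.0% and 9.61%. The Sprouty and Spred genes, which like Dusp6 restrain the ERK pathway, were higher in LLC tumor than in LLC blood for 6 of 6 tested genes, with a median log2 fold change of 3.89. Spred2 was at 2.64 ± 0.275 CPM (SD, n = 3) in LLC blood and 34.2 ± 4.69 CPM in LLC tumor (log2 fold change 3.87 ± 0.17 SE, adjusted p 2.55e-07), and Spry2 at 2.15 ± 0.586 and 29.2 ± 7.91 CPM (3.92 ± 0.23 SE, adjusted p 1.07e-06). In LLC blood against healthy blood 1 of the 6 was lower (0 without LLC blood 1), and edgeR called 0 higher (1 at an unadjusted p under 0.05, 0 by DESeq2 and 1 by limma-voom).

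Of the 15 immediate early genes downstream of MAP kinases 14 rose from LLC blood to LLC tumor (median 3.72), and 9 of the 15 are also among the dissociation stress genes. Ier3 was at 12.3 ± 1.37 CPM in LLC blood and 620.0 ± 97.6 CPM in LLC tumor (5.84 ± 0.15 SE, adjusted p 5.14e-08), and Egr2 at 0.880 ± 0.324 and 39.4 ± 17.7 CPM (5.78 ± 0.46 SE, adjusted p 6.43e-06). Fosl1, at 3 counts or fewer in every LLC blood library, was at 27.8 ± 6.11 CPM in LLC tumor, at least 130-fold higher than 3 counts per library. In LLC blood against healthy blood 3 of the 15 fell and 1 rose (median -0.82, or -0.87 with the genes at 3 counts or fewer set at their bound or left out), and without LLC blood 1 8 fell and 1 rose (median -1.25). There Egr1 fell from 33.1 ± 6.27 to 6.38 ± 4.57 CPM (-2.47 ± 0.44 SE, adjusted p 0.00401; -3.11 without LLC blood 1), and Ier3 rose by 0.79 ± 0.14 SE (adjusted p 0.00425).

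The kinases themselves were called in both directions, as were all tested genes (29.6% higher and 31.7% lower in LLC tumor than in LLC blood). Of 11 tested MAP kinases 6 were higher and 2 lower in LLC tumor than in LLC blood (median 0.40), or 5 and 2 without LLC blood 1. Mapk14, which encodes the main p38, fell from 456.8 ± 7.90 to 159.6 ± 17.9 CPM (-1.32 ± 0.08 SE, adjusted p 1.06e-06), and Mapk6, an atypical ERK, rose from 78.1 ± 10.6 to 276.5 ± 12.8 CPM (2.04 ± 0.14 SE, adjusted p 2.36e-06). Among MAP kinases of low level, named after their values were seen, Mapk12, which encodes p38 gamma, was at 3 counts or fewer in every LLC blood library and at 8.43 ± 6.01 CPM in LLC tumor, at least 39.6-fold higher. Mapk11, which encodes p38 beta, rose from 0.976 ± 0.307 to 3.75 ± 2.58 CPM (2.06 ± 0.59 SE, adjusted p 0.0132). Mapk4, an atypical ERK, was at 1.69 ± 0.219 CPM in LLC blood and at 3 counts or fewer in every LLC tumor library, at least 6.36-fold lower. Of 7 MAP kinase kinases 3 were higher and 1 lower, among them Map2k4, an activator of JNK and p38, which rose by 1.47 ± 0.09 SE (adjusted p 1.56e-06). Of 13 MAP kinase kinase kinases 2 were higher and 5 lower, and Map3k5, a stress-activated kinase, fell by 1.15 on the log2 scale (SE 0.07, adjusted p 8.55e-07). Of 10 kinases activated by MAP kinases 1 was higher and 5 lower, or 1 and 4 without LLC blood 1. Among them Rps6ka1, an ERK-activated ribosomal S6 kinase, fell from 311.6 ± 19.0 to 109.6 ± 10.03 CPM.

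In LLC blood against healthy blood 14.0% of all tested genes were higher and 9.61% lower. There 7 of the 13 MAP kinase kinase kinases were higher, or 5 without LLC blood 1. With all 9 libraries edgeR called 0 lower (1 lower at an unadjusted p under 0.05, 0 by DESeq2, 3 by limma-voom). Braf, an activator of the ERK cascade, rose from 66.8 ± 1.88 to 100.2 ± 6.85 CPM (0.56 ± 0.07 SE, adjusted p 0.000964), and Map3k2 from 70.2 ± 4.47 to 115.4 ± 13.7 CPM (0.69 ± 0.11 SE, adjusted p 0.00208).

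Other phosphatases were also called in both directions in LLC tumor against LLC blood, where 29.6% of all tested genes were higher and 31.7% lower. Of 6 tested phosphatases of MAP kinases outside the DUSP family 3 were higher and 2 lower, and Ptpn7, a tyrosine phosphatase of ERK and p38, rose from 40.4 ± 5.79 to 81.8 ± 5.47 CPM (1.22 ± 0.15 SE, adjusted p 7.69e-05). Of 11 tested other DUSP and related genes 3 were higher and 4 lower (median -0.15), or 3 and 2 without LLC blood 1. Dusp22, an atypical DUSP with counts shared with other genes in 2 libraries, fell from 111.3 ± 5.48 to 27.1 ± 3.32 CPM (-1.84 ± 0.07 SE, adjusted p 2.08e-07). Those that rose were Dusp8, Dusp9 and Dusp14, named after their values were seen: each was at 3 counts or fewer in every LLC blood library, and in LLC tumor they were at least 8.63-fold, 43.2-fold and 15.6-fold higher.

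**Figure D5:**
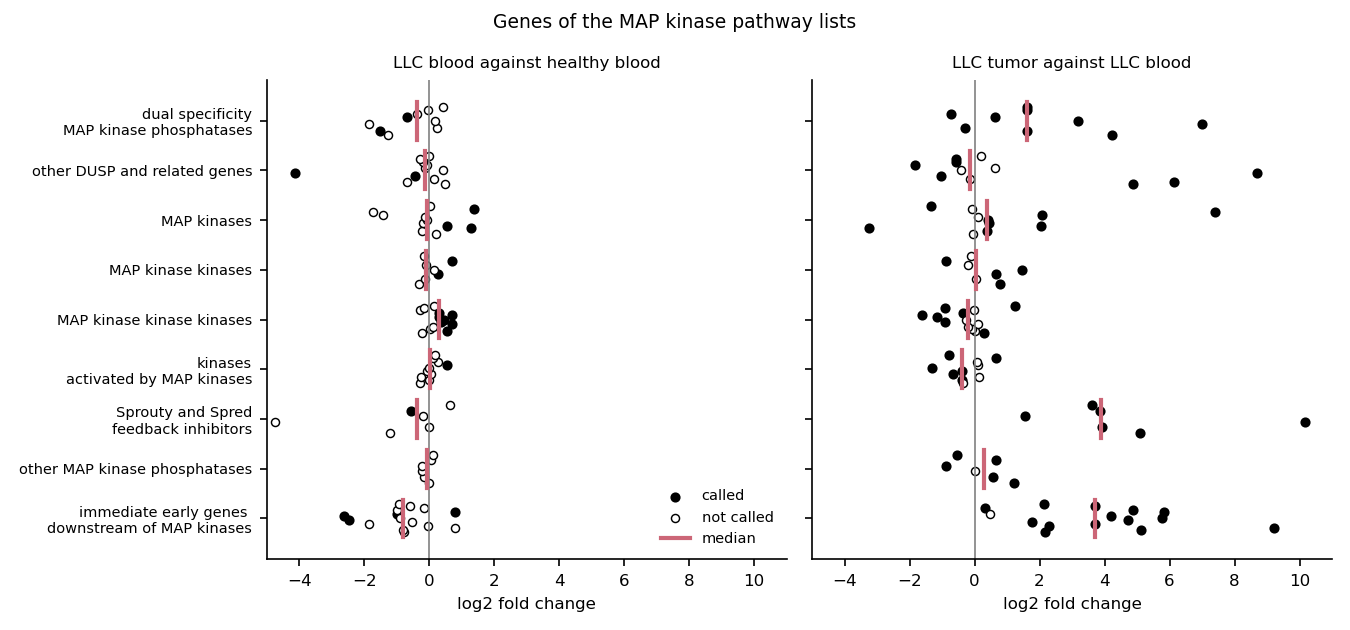
Log2 fold change of each tested gene of the pathway lists in LLC blood against healthy blood (left) and LLC tumor against LLC blood (right), filled points called and open points not, red lines the medians. Genes at 3 counts or fewer in a group are drawn at their fitted value, which is no bound; the dual specificity, Sprouty and Spred and immediate early lists have their medians at 1.61, 3.89 and 3.72 on the right.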

How the data were processed

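Monocyte RNA was extracted with TRIzol, made into TruSeq libraries and sequenced on a HiScanSQ, per the labels' protocols. The authors deposited a table of expected counts (estimated read counts per gene symbol, not normalized). The submitters' processing notes name STAR 2.6.1d, Salmon 1.9.0, edgeR and the build mm10, with no role or order, and the annotation is not given in the sources used here. Of the values per library 8.56% to 9.73% were not whole. Among the members this held for Dusp3 in 1 library. Of the other list genes named, it held for Fosl1 in 6 libraries, Mapk14 in 4, Spry2, Mapk11 and Dusp22 in 2 each, and Rps6ka1 in 1. The deposited CPM table was not used.

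Counts were rounded and fitted with edgeR 4.0.16 in R 4.3.3 (TMM factors, filterByExpr, group as the only term, quasi-likelihood test), which tested 12337 of 24411 entries. The scripts were tested on simulated data. Alternatives were other factors, no filter, DESeq2 1.42.0 and limma-voom with sample quality weights (limma 3.58.1). Further ones were the 6 libraries compared, a replicate block, each library left out and stricter thresholds. Added after seeing the data were the fit without both libraries numbered 1 of the blood groups, and the pathway lists without LLC blood 1. All members are described; of the other lists at most 3 called genes with the largest change and a mean of at least 5 CPM could be named, and up to 2 genes of most like pattern a member. Members, lists and markers were chosen with earlier results of these data known. Of the listed genes Spry3 was not used here, and Map3k20 was read under its older symbol Zak. No batch is labelled, so a batch matching the groups cannot be told apart from a group difference. Blood libraries are headed BM in the table, which was taken to mean blood monocyte, as in their titles. The chromatin samples were not analysed here.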

Additional observations from a re-analysis of the deposited data

How the results depend on the processing

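For LLC blood against healthy blood 2 members were called, and 2917 of all genes. With DESeq2 4 members were called (3413 of all genes), with the 6 libraries alone 4 (4889) and with the replicate block 4 (2788). Limma-voom with sample quality weights called 5 members (5884 of all genes). At an adjusted p under 0.01 the count was 1 (1386 of all genes). It was also 1 when the log2 fold change had to reach 1 in size too (769 of all genes). Leaving out 1 library gave 1 to 5 members. The count was 1 when omitting healthy blood 1, healthy blood 3, LLC blood 2 or LLC blood 3, with 1494 to 1993 of all genes called. It was 5 without LLC tumor 1, with 5064 of all genes called. Both tumor comparisons stayed within 1.5 times of their 9 and 6 members under every alternative. Direction changed in 12 of 485 refits of a member's log2 fold change, all for differences that were not called. Across the fits that each left out 1 library, Dusp10 in LLC blood against healthy blood ran from -0.127 to 0.105 (0.0512 without healthy blood 3), and in LLC tumor against healthy blood Dusp2 ran from -0.328 to 0.362, Dusp3 from -0.211 to 0.0247 and Dusp6 from -0.204 to 0.0398 (0.0315 without LLC tumor 3). In that comparison Dusp2 was also -0.0468 under upper-quartile factors, -0.14 under library totals, -0.135 with limma-voom and -0.0531 with the replicate block, and Dusp6 was 0.0112 under RLE factors and 0.00463 with DESeq2. The cause was not tested.

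Whether replicate numbers pair the samples could not be decided from correlations of deviations with 3 libraries a group. Same-numbered libraries of LLC blood and healthy blood gave 0.302, 0.164 and 0.0656. Different-numbered ones ran from -0.31 to 0.186, the highest being LLC blood 2 with healthy blood 3. In the other comparisons the values ran from -0.115 to 0.137. With the replicate block 4, 9 and 6 members were called in the 3 comparisons, and 2788, 7455 and 8092 of all genes. The added calls in blood were Dusp1 (-1.40, adjusted p 0.00487) and Dusp4 (-1.78, adjusted p 0.0173). With TMM-adjusted library sizes 6 members instead of 5 had their highest mean in LLC tumor, and scaling by library totals moved the median of all genes in LLC tumor against LLC blood to -0.23. Depth limits Dusp4 in blood, at 2 to 22 counts per library.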
